A study of Mus musculus with 6 samples.

Results

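Actins and tropomyosins, the building blocks of the thin filament, were examined in mouse muscle satellite cells through the probes whose gene name in the scanner files was Acta1, Actc1, Acta2, Actg2, Actb, Actg1, Tpm1, Tpm2, Tpm3 or Tpm4. All 10 genes were present, of 27827 gene names in the files, with 20 probes on 38 spots, out of 41174 non-control probes on 43379 spots. Of these 20 probes, 18 were tested, which a probe had to earn by standing well above background on 3 of 3 arrays in the Magic-F1 or the control group. The remaining 2, an Acta2 and a Tpm3 probe, were not well above background on any array.

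The series compared RNA of proliferating satellite cells, which repair muscle, between a Magic-F1 +/+ group and a control group. Magic-F1 is an artificial protein built from parts of hepatocyte growth factor that acts through the receptor MET. Sample titles carry the word Omo in the Magic-F1 group and MLC3F in the control group, and the labels explain neither. All samples were labelled as skeletal muscle and female, and the labels name no strain, age or treatment. Each group held 3 samples on 3 single-colour arrays. The samples are called biological triplicates, but no label ties them to separate animals or cultures, so p-values measure the spread between these samples only, which may be technical. The labels do not say which promoter drives Magic-F1, and no probe was used to check for it. In RNA of whole samples, fewer cells of a type and less RNA per cell cannot be told apart.

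Actin monomers assemble into filaments, and tropomyosin dimers lie along the filament and govern which proteins reach it. Striated muscle uses Acta1 in mature fibres and Actc1 in heart and in developing or regenerating muscle, smooth muscle uses Acta2 and Actg2, and every cell uses the cytoplasmic forms Actb and Actg1. The tropomyosin genes are alternatively spliced. Tpm1, Tpm2 and Tpm3 give both muscle and cytoplasmic products, the beta form of muscle coming from Tpm2, and Tpm4 gives mainly cytoplasmic products. Many actin genes are targets of the transcription factor SRF, which binds a sequence known as the CArG box, and its cofactors of the MRTF family respond to free actin monomers.

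Because actins are so alike in their coding sequence, the probes themselves decide which gene is read, and 3 of those behind the muscle actin results are shown here as the scanner files give them, 5′ to 3′, each 60 bases long.
Acta1 (from base 919 of its transcript): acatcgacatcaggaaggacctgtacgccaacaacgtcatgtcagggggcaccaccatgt
Actc1 (from base 857): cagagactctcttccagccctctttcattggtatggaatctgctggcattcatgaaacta
Acta2 (from base 298): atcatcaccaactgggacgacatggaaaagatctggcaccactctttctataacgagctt
The Actc1 and Acta2 probes cover 924 and 3255 bases of the genome, more than their own length, so they span an exon junction. In mm9, the build of the files, they lie at chr2:113874011-113874934 (Actc1) and chr19:34322995-34326249 (Acta2), and the Acta1 probe at chr8:126416197-126416256. Slid along each other without gaps, no actin probe matched a probe of another member gene at more than 27 bases. None of the 3 shared a run of 16 bases with another array probe, except that of Acta2, which shared 17 bases with a probe of an unnamed transcript. How far each probe also binds the other actin transcripts was not tested.

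Signals below are log2 values relative to the 75th percentile of the same array, so 0 is that percentile. The 75th percentile itself was a signal of 341 to 356 on the Magic-F1 arrays and 275 to 292 on the control arrays, between 49.2% and 52.0% of spots were well above background, and 0 were saturated. Arrays of a group differed by an SD of 0.25 to 0.32 over the tested probes. The median change of all tested probes was −0.10, and it became 0.34 when arrays were scaled to the spiked-in transcripts and −0.06 under quantile normalization, so the direction of small changes depends on the scaling. A change here is the Magic-F1 mean minus the control mean, tested with limma and called at a Benjamini-Hochberg adjusted p below 0.05 over 21187 probes.

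Nearly all members were lower in Magic-F1 cells. Of the 18 tested probes 17 were called lower, 0 higher and 1 was not called, where 87.7% of all tested probes were called, 46.4% as lower and 41.3% as higher. Scaled to the spike-ins, the split over all probes turned to 11017 higher and 7267 lower. Being called is therefore common on these arrays, and the sizes carry the description. The median change of the 18 member probes was −2.51, against −0.10 for all tested probes. A call with a fall of at least 2-fold was made for 15 of the 18, against 27.6% of all tested probes. Groups did not overlap for 17 of the 18, as for 89.1% of all tested probes. By class the median change was −4.50 for the 2 probes of striated actins, −2.85 for the 5 of smooth muscle actins, −0.99 for the 4 of cytoplasmic actins and −2.51 for the 7 of tropomyosins. Among the 4 cytoplasmic probes, 1 named Actb but placed on chromosome X passed the filter through the control group alone, so it could only be called lower. It counts in the 17, the 15 and the cytoplasmic median, with a change of −3.49, or −0.77 with normexp background. The plot of signals by array shows the brightest probe of each gene.

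**Figure D1:**
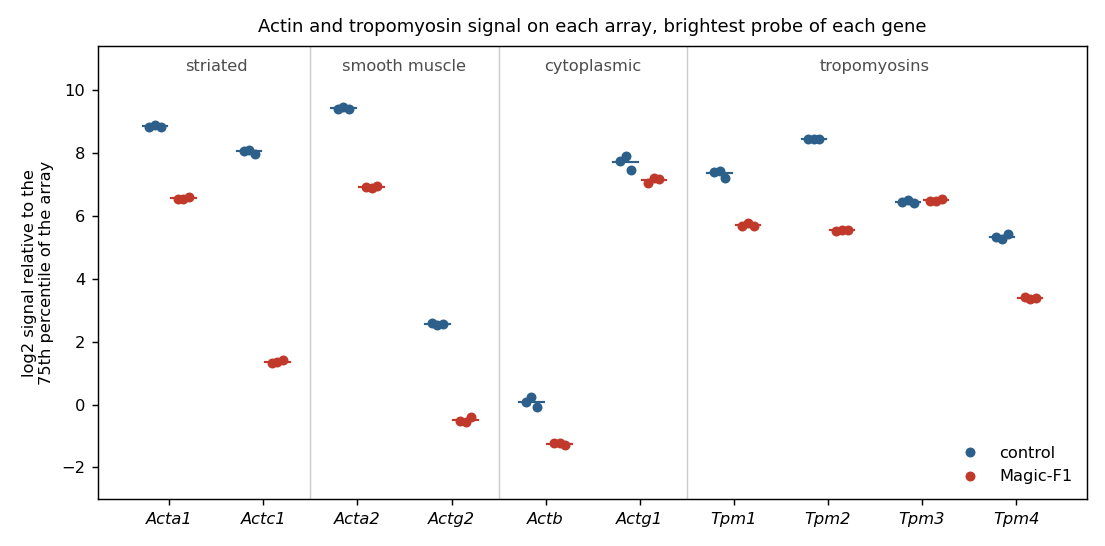
Log2 signal relative to the 75th percentile of the array (vertical axis) for the brightest tested probe of each of 10 genes, with 1 point per array and a line at the mean of 3 arrays. Control points lie above Magic-F1 points for every gene except Tpm3, and the gap is widest for Actc1 (8.06 against 1.37 on average).

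Actc1, the cardiac alpha actin of developing muscle, had the largest difference of the members. Its signal was 1.34, 1.36 and 1.41 on Magic-F1 arrays 1, 2 and 3 and 8.07, 8.11 and 7.98 on control arrays 1, 2 and 3. Every Magic-F1 array lay far below every control array, and the probe was still well above background on all 6. The change was −6.69 (SE 0.05, adjusted p = 2.03e-08), a 103-fold fall, and 0.227% of the tested probes had a more negative change. With normexp background it was −6.56, and scaled to the spike-ins −6.24.

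Acta1, the skeletal alpha actin of mature fibres, fell much less. Its values were 6.55, 6.53 and 6.59 in Magic-F1 and 8.84, 8.91 and 8.84 in control cells. The groups stood far apart, arrays of a group were close together, and Acta1 remained a bright probe in Magic-F1 cells, with processed signals of 32065 to 33379. The change was −2.30 (SE 0.05, adjusted p = 1.02e-07), a 4.94-fold fall, and 8.99% of tested probes changed more negatively. Relative to Acta1 on the same array, Actc1 fell by 4.38 on the log2 scale (SE 0.03), a 20.8-fold shift in the balance of the striated actins.

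The smooth muscle actins fell by amounts near that of Acta1 or beyond it. Acta2, the alpha actin of smooth muscle, pericytes and activated fibroblasts, had its brightest probe spotted 10 times on each array, at chr19:34316060-34316119. That probe read 6.92, 6.89 and 6.96 in Magic-F1 and 9.40, 9.47 and 9.41 in control cells, with no overlap. Its change was −2.50 (SE 0.05, adjusted p = 7.78e-08), a 5.65-fold fall. The repeated spots varied within an array by an SD of 0.04 to 0.07 log2, so the difference between groups was many times the noise between spots. On Magic-F1 array 1, 2 of the 10 spots were flagged as outliers and left out.

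**Figure D2:**
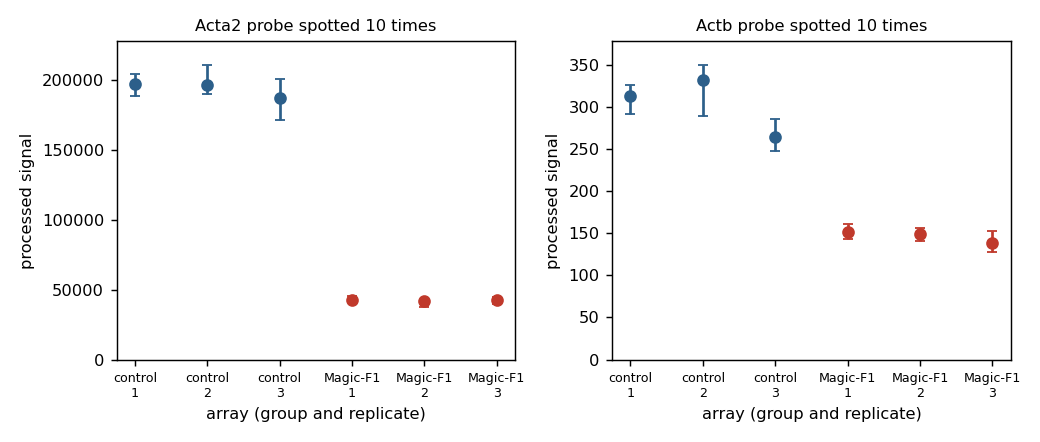
Processed signal (vertical axes, starting at 0) of the Acta2 and Actb probes that are spotted 10 times on each of the 6 arrays. Points are medians over spots and bars run from the lowest to the highest spot, and no bar of a Magic-F1 array reaches a bar of a control array for either gene.

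The other Acta2 probes gave the same direction with different sizes. The junction probe shown above read 3.95, 3.95 and 3.91 in Magic-F1 and 6.79, 6.90 and 6.66 in control cells, a change of −2.85 (SE 0.07, adjusted p = 2.14e-07). A probe from base 1604 of the same transcript changed by −3.12 (SE 0.05). A probe from base 222 of a cDNA not matched to RefSeq changed by −2.10 (SE 0.18), with Magic-F1 replicate 3 at −2.89 above its partners at −3.54 and −3.49. It is the dimmest tested Acta2 probe, and with normexp background its change was −1.22. The last probe, at chr19:34327946-34328005, stayed near background on all 6 arrays.

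Actg2, the gamma actin of visceral smooth muscle, was measured by 1 probe. It read −0.51, −0.56 and −0.39 in Magic-F1 and 2.58, 2.54 and 2.55 in control cells, with a wide gap between the groups. The change was −3.04 (SE 0.06, adjusted p = 8.67e-08), an 8.25-fold fall, and −2.78 with normexp background.

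By their brightest probes, the cytoplasmic actins moved least among the actins. Actg1, the gamma cytoplasmic actin, read 7.04, 7.21 and 7.17 in Magic-F1 and 7.75, 7.91 and 7.47 in control cells by its brightest probe, at chr11:120207446-120207505. The groups did not overlap, but control replicate 3 came close to the highest Magic-F1 array. The change was −0.57 (SE 0.12, adjusted p = 0.00463), a 1.49-fold fall. It was −0.0033 under quantile normalization (adjusted p = 0.981) and −0.13 scaled to the spike-ins (adjusted p = 0.261), and the adjusted p ranged from 0.000785 to 0.981 over the alternatives, so the call for Actg1 depends on the scaling. A dimmer Actg1 probe, from base 662, changed by −0.64 (SE 0.08, adjusted p = 0.000388), and by −0.20 scaled to the spike-ins (adjusted p = 0.0774, the highest over its alternatives).

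Actb, the beta cytoplasmic actin often used as a reference gene, was lower too. Its probe at chr5:143665245-143665304, spotted 10 times, read −1.23, −1.22 and −1.29 in Magic-F1 and 0.09, 0.23 and −0.06 in control cells. All Magic-F1 arrays were below all control arrays, with control replicate 3 the lowest of its group. The change was −1.33 (SE 0.08, adjusted p = 1.02e-05), a 2.52-fold fall, −1.06 with normexp background and −0.89 scaled to the spike-ins. Median spot signals of this dim probe were 139 to 151 in Magic-F1 and 264 to 332 in control cells. The ratios to Actb given below rest on it. A second probe named Actb, for a cDNA not matched to RefSeq, lies on another chromosome, at chrX:148868817-148868876. It passed the background limit on 3 of 3 control arrays and 0 of 3 Magic-F1 arrays. In processed signals this gives a fall of at least 3.62-fold, the Magic-F1 arrays being set at the lowest signal that counts as well above background. Its change with normexp background was −0.77, a 1.70-fold fall, so that bound holds for the processed signals only.

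**Figure D3:**
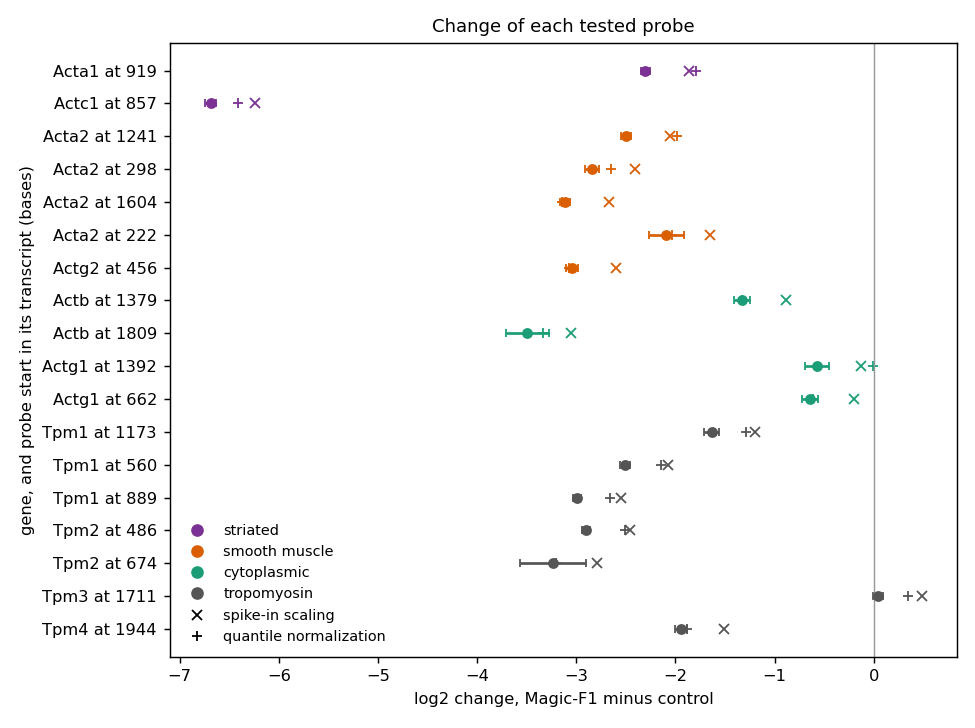
Log2 change, Magic-F1 minus control (horizontal axis), of the 18 tested probes, named by gene and by the base of the transcript where the probe starts. Dots with bars are the change and its SE, crosses are spike-in scaling and plus signs quantile normalization. Changes run from −6.69 (Actc1) to 0.04 (Tpm3), and the spike-in values lie to the right by a like amount for every probe.

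The balance between actins was compared within each array, so that a factor common to all probes of an array drops out. The log2 ratio of each muscle actin to Actb and to Actg1 was lower on all 3 Magic-F1 arrays than on all 3 control arrays. Against Actb the ratio changed by −0.97 for Acta1 (SE 0.08), −1.17 for Acta2 (SE 0.08), −1.71 for Actg2 (SE 0.11) and −5.35 for Actc1 (SE 0.06). Against Actg1 the changes were larger, at −1.73 for Acta1 (SE 0.13), −1.93 for Acta2 (SE 0.13), −2.47 for Actg2 (SE 0.15) and −6.11 for Actc1 (SE 0.10). Within classes, Actb fell relative to Actg1 by 0.76 (SE 0.08). By its brightest probe, Acta2 was higher relative to Actg2 by 0.54 (SE 0.05), or 0.32 with normexp background. Actg2 changed by −3.04 and the other tested Acta2 probes by −2.85, −3.12 and −2.10, so that direction depends on the Acta2 probe. Each of the 11 ratios had a 2-sided exact permutation p of 0.1, also after Benjamini-Hochberg adjustment, which is the smallest that 3 arrays against 3 allow. Quantile normalization, which also reshapes each array's distribution, kept all 11 directions but moved 4 sizes by over 1.5 times. Acta1 against Actb was then −0.46, Acta2 against Actb −0.65, Actb against Actg1 −1.33 and Acta2 against Actg2 1.09. In these probes the muscle forms fell by more than the cytoplasmic forms, Actc1 most, by amounts that depend on the normalization.

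**Figure D4:**
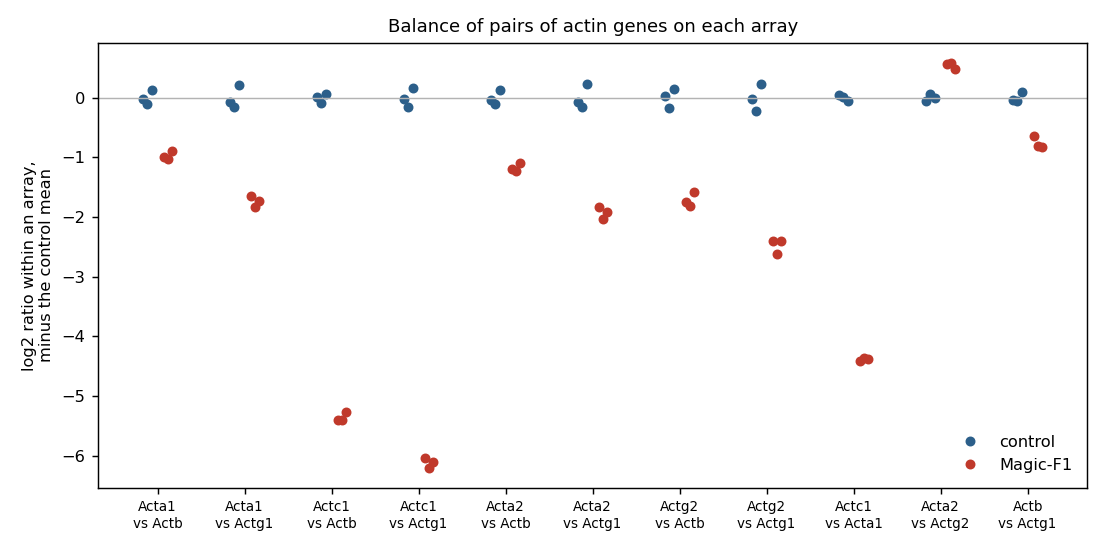
Log2 ratio of the first to the second actin gene within an array, minus the mean of that ratio on the control arrays (vertical axis), with 1 point per array. Each gene is read by its brightest tested probe. Magic-F1 points are below control points for 10 of 11 pairs, down to −6.11 on average for Actc1 against Actg1, and above them for Acta2 against Actg2 (0.54).

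Among tropomyosins, Tpm2 fell most by its brightest probe and Tpm3 did not pass the test. The probes of Tpm1 and Tpm2 shown next cover like stretches of their transcripts, with the aligned part in capitals, where 27 of 33 bases are equal.
Tpm1 (from base 560): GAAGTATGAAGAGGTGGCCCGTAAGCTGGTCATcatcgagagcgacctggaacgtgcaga
Tpm2 (from base 486): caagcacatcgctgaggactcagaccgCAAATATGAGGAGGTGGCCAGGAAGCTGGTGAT
The Tpm2 probe, at chr4:43532150-43532300, read 5.53, 5.57 and 5.55 in Magic-F1 and 8.44, 8.45 and 8.46 in control cells. Arrays of a group were almost equal and the groups far apart, with a change of −2.90 (SE 0.04, adjusted p = 3.63e-08), a 7.46-fold fall. A second Tpm2 probe, from base 674, changed by −3.23 with a larger error (SE 0.33), since Magic-F1 replicate 3 stood at 0.52 against 1.77 and 1.62 on its partners.

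Tpm1, whose transcripts serve both muscle and cytoplasm, fell by a different amount at each of its 3 probes. The probe shown above, spanning a junction at chr9:66880625-66881695, read 5.29, 5.29 and 5.21 in Magic-F1 and 7.77, 7.82 and 7.74 in control cells, a change of −2.51 (SE 0.05, adjusted p = 9.71e-08). The probe from base 889 of a cDNA not matched to RefSeq, across a junction at chr9:66875959-66877514, changed by −2.99 (SE 0.04, adjusted p = 3.97e-08). The probe nearer the end of the RefSeq transcript, from base 1173, at chr9:66870869-66870928, read 5.69, 5.78 and 5.68 against 7.41, 7.44 and 7.21. It changed by only −1.64 (SE 0.08, adjusted p = 2.88e-06).

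Within each array, the Tpm1 probe from base 1173 rose relative to that from base 560 by 0.88 (SE 0.06) and relative to that from base 889 by 1.36 (SE 0.07). These ratios did not overlap between groups. This comparison of probes of 1 gene was chosen after the values were seen. It covered 12 pairs of probes, of which 10 did not overlap, each with an exact permutation p of 0.1, the smallest possible. These include the Actb pair, with its probe on chromosome X, and the pairs with the dim Acta2 probe from base 222. How often probes of 1 gene differ in this way over the whole array was not computed. The pairs whose groups overlapped were those of Actg1 (0.07, SE 0.13) and Tpm2 (0.33, SE 0.40). Which splice forms each Tpm1 probe reads was not tested.

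Tpm4, known mainly for cytoplasmic tropomyosin, read 3.43, 3.36 and 3.39 in Magic-F1 and 5.33, 5.25 and 5.44 in control cells. The groups were well apart, with a change of −1.95 (SE 0.06, adjusted p = 5.26e-07), a 3.86-fold fall. Tpm3, which gives the slow muscle form and widespread cytoplasmic forms, was the 1 gene of the 10 that was not called. It read 6.46, 6.47 and 6.55 in Magic-F1 and 6.44, 6.50 and 6.42 in control cells, and the groups overlapped. Its change was 0.04 (SE 0.05, adjusted p = 0.469).

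The Tpm3 result depends on the scaling. It was called higher under quantile normalization (0.35, adjusted p = 0.00106), with the median of each array (0.17, adjusted p = 0.0309) and scaled to the spike-ins (0.48, adjusted p = 0.000157), with adjusted p-values between 0.000157 and 0.840 across the alternatives. A second Tpm3 probe, from base 696, stayed near background on all 6 arrays, so Tpm3 rests on the probe from base 1711 alone.

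RefSeq promoters, on build GRCm38.p6 and running from 250 bases before the start of a gene to 50 after it, were found for 8 of the 10 genes, as 9 windows. Strict CArG boxes, meaning CC, 6 bases of A or T, and GG, were present in the windows of 3 genes, each once, against 1.63% of 32851 promoter windows of all genes. The 3 are shown because they include the actin that changed most and the one that changed least, with the box in capitals and 15 bases on each side.
Actc1 (minus strand, chr2:114052898-114052937): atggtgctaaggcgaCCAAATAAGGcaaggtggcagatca
Acta1 (minus strand, chr8:123894824-123894863): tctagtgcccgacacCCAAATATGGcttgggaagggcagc
Actg1 (minus strand, chr11:120348561-120348600): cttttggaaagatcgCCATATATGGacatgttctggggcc
The boxes began 47, 73 and 90 bases before the start. The motif CANNTG, the E-box core, was present on at least 1 strand in all 9 windows and in 72.3% of all windows. TATAAA was found in the windows of Actc1 and Acta1 and in 13.6% of all windows. The motifs were searched on both strands, and a match is a description of letters only.

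SRF itself fell slightly in Magic-F1 cells (Srf, −0.34, SE 0.05, adjusted p = 0.00105), but its change was 0.10 when scaled to the spike-ins. Of 10 genes listed as SRF and its cofactors, 8 were tested, of which 3 rose and 5 fell, with a median of −0.59. For comparison, 40.5% of 12296 named genes were called higher and 48.8% lower, with a median of −0.17. The cofactor Mrtfa rose (1.69, SE 0.05) and Mrtfb fell (−0.84, SE 0.09), while Myocd, the cofactor of smooth and cardiac muscle, stayed near background on all 6 arrays. The ETS-type SRF partners Elk4 (1.25) and Elk3 (0.98) rose. The LIM proteins Fhl1 (−2.36) and Fhl2 (−1.28) and the striated muscle activator of SRF Abra (−1.87) fell.

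Thin filament partners fell along with the muscle actins. In the thin filament and troponin list, 12 of 13 tested genes fell and 1 rose, and the median was −2.60. Of all named genes 48.8% were called lower. Scaled to the spike-ins 10 of the 13 fell, with Neb at −0.03 and Lmod1 at −0.08. Another 4 listed genes were too dim to test. The largest falls were those of Tnnc1, the calcium-binding troponin of slow and cardiac muscle (−3.91, SE 0.06), Tnni1, its slow muscle inhibitory partner (−3.70, SE 0.06), and Tnnt1, the slow tropomyosin-binding troponin (−2.95, SE 0.06). Cardiac Tnni3 rose (0.97, SE 0.08). Lmod3, a leiomodin that nucleates thin filaments in skeletal muscle, fell by 2.76.

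Proteins that bind and crosslink actin fell for 16 of 21 tested genes and rose for 5, with a median of −1.54, where 48.8% of all named genes were called lower. Large falls were seen for Xirp1, a protein of muscle attachment sites (−2.60, SE 0.06), and Cnn3, a calponin (−2.57, SE 0.05). Tagln3 passed the background limit on 0 Magic-F1 arrays, so in processed signals its fall is given as at least 5.73-fold. Its change with normexp background was −0.96, a smaller fall than that bound. Lcp1, the plastin of white blood cells, rose by far the most (4.01, SE 0.05), ahead of Actn4 (0.43) and Pls3 (0.38). Tagln, a smooth muscle protein often expressed with Acta2, fell by 1.75.

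Genes of actin assembly and turnover did not share a direction. Of 34 tested, 16 rose, 15 fell and 3 were not called, with a median of 0.10. Of all named genes 40.5% were called higher and 48.8% lower, so this split is near that of all genes. Scaled to the spike-ins only 9 fell, and over all tested probes the number called lower went from 9839 to 7267. Gsn, the severing protein gelsolin (4.10, SE 0.05), Was, the activator of actin branching in blood cells (3.84, SE 0.06), and the formin Diaph1 (2.62, SE 0.07) rose most. Actr2, a subunit of the branching complex (−4.86, SE 0.08), Tmsb10, a monomer-binding thymosin (−3.73, SE 0.07), and Cap2, a monomer-recycling protein (−2.71, SE 0.05), fell most. A second Cap2 probe fell by 1.73.

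**Figure D5:**
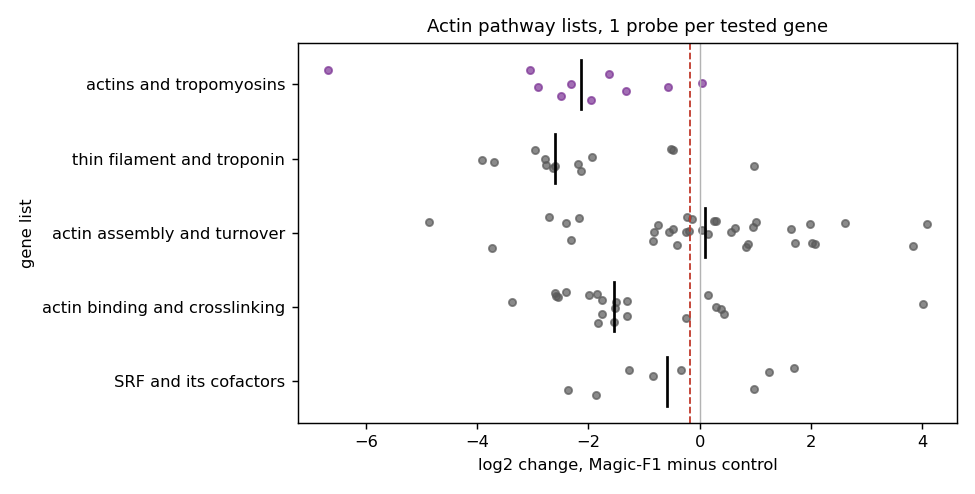
Log2 change, Magic-F1 minus control (horizontal axis), of each tested gene by its brightest probe, for the 10 actin and tropomyosin genes and 4 pathway lists (vertical axis). Black lines mark list medians (−2.60 for the thin filament list, 0.10 for assembly and turnover), and the dashed line is the median of all 12296 named genes (−0.17).

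Markers of several cell types moved together with these results. The counts below stand beside 40.5% of all named genes called higher and 48.8% called lower. The labelled cell type was checked through 10 satellite cell and myoblast markers: all 8 tested ones fell (median −3.34), Pax7 was well above background on control arrays only, and Pax3 and Myf5 on none. Their summed signal, in units of the 75th percentile, was 34.2 to 35.6 in Magic-F1 and 446 to 483 in control cells. Most of this control sum came from Myog (log2 mean 7.88, against 3.24 in Magic-F1) and Des. Pax7 had a log2 mean of only −3.10 in control cells, so the sum says little about it. Pax7 entered the test through the control group alone. Of 9 pericyte and smooth muscle markers other than the actins 8 fell and 1 rose, with sums of 33.2 to 34.9 against 133 to 150. Most of the control sum came from Des (log2 mean 6.83, against 3.49 in Magic-F1), which is also among the satellite cell and myoblast markers. Rgs5, among the 8, passed the filter through the control group alone and could only be called lower. Macrophage markers rose for 13 of 13, with sums of 1162 to 1206 against 83.7 to 86.6, and adipocyte markers for 7 of 7 tested, with sums of 432 to 462 against 59.0 to 66.0. Among these, Mrc1 and Retn passed the filter through the Magic-F1 group alone, so they could only be called higher. Neutrophil markers had sums of 0.202 to 0.222 against 582 to 627, and 5 of the 8 in the Magic-F1 sum were not above background there. Of the 7 tested, 4 (S100a9, Camp, Ltf and Ngp) could only be called lower, since they passed the filter through the control group alone, and the other 3 fell too. Fibroblast markers fell for 5 of 8 and rose for 3, a split not far from that of all named genes. Their sums were 735 to 750.02 against 1061 to 1090.04, and endothelial markers had sums of 16.6 to 18.1 against 9.77 to 10.2. The higher endothelial sum came almost wholly from Vwf (3.58), and Kdr also rose (0.64, but −0.031 with normexp background). Of the 6 endothelial markers that fell, all except Emcn (Pecam1, Cdh5, Cldn5, Sox18 and Robo4) passed the filter through the control group alone. The part of these cell types in the actin and tropomyosin results was not tested.

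By the root mean square difference of centred log2 signals over the 6 arrays, the genes most like Actc1 were Serpinb10 (0.08), Rrm2 (0.09) and Rgs5 (0.10). Those most like Acta2 were Gins2 (0.01), Chrna1 (0.02) and Sim2 (0.03), and those most like Actb were Sord (0.04), Il15ra (0.04) and Traf3ip2 (0.04). Rgs5 passed the background limit on 0 Magic-F1 arrays. With 2 groups, this measure mainly picks genes with a change of like size.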

How the data were processed

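Total RNA with spiked-in viral transcripts was converted to Cy3-labelled cRNA for single-colour Agilent arrays, per the labels' protocols. The deposited scanner files give spot intensity from Agilent Feature Extraction 10.5.1.1, background-subtracted and not normalized between arrays, per the file headers. The authors also deposited a table of log2 values. It equals the log2 processed signal on 4 arrays (within 1e-06) and differs on both arrays numbered 1, for reasons that no label gives, so it served as an alternative.

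Each array was scaled by subtracting, on the log2 scale, the 75th percentile of its processed signals, control spots excepted. Outlier spots were left out and spots of a probe averaged. A probe was well above background if most of its spots were. The test was limma 3.58.1 (functions lmFit, then eBayes; R 4.3.3) on a design with 1 group term, and p-values of 21187 tested probes were adjusted together by the Benjamini-Hochberg method. The procedure was tested on simulated data. Ratios of 2 genes within an array were compared by 2-sided exact permutation tests in scipy 1.17.1. List genes, named through RefSeq accessions (25097 of 41174 probes matched) or else by the files' names, were represented by their brightest tested probe. The text names all members, the up to 3 largest called rises and falls of each pathway list, and, chosen after their values were seen, Srf, Mrtfb, Myocd, Lmod3, Tagln, single marker genes and the genes under other observations.

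Slide 1 held replicates 1 and 3 of each group, and slide 2 held replicate 2. Alternatives covered background, scaling, filters, slide, replicate block, the authors' table and leaving out each array. The number of arrays limits the precision. Some items are not reported here. Members and lists were chosen with earlier results of these data known.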

Additional observations from a re-analysis of the deposited data

How the results depend on the processing

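Over 18 alternatives, 317 of 323 member probe results kept their direction and their side of the threshold. In many of these the direction could not turn. The filters, eBayes setting, slide block and replicate block left the sizes unchanged, and leaving out an array cannot reverse groups that do not overlap. The results that lost or gained a call did so with the scaling of arrays. Actg1 lost its call under quantile normalization (−0.0033) and spike-in scaling (−0.13), as did its dimmer probe under spike-in scaling (−0.20). Tpm3 gained one under quantile normalization (0.35), the median of each array (0.17) and spike-in scaling (0.48), so that 1 member probe was called higher under each of these. Spike-in scaling left 9 assembly and turnover genes called lower, against 15. All 99 recomputed gene ratios (normexp background, each array left out, pairs of replicate numbers and, added after the data were seen, quantile normalization) kept their direction. Only normexp background and quantile normalization could have turned one. All 99 used the brightest probe of each gene, so the choice of probe was not varied. The ratios did not overlap between groups, so leaving out an array cannot reverse them, and the mean over replicate pairs equals the main value.

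Correlations of deviations between same-numbered arrays were −0.0030, 0.108 and 0.069, against −0.115 to 0.048 between arrays of other numbers. All were small, and whether replicate numbers pair the arrays cannot be told from them. With a replicate block 18541 probes were called, against 18588, and 17 member probes lower as before. Leaving out 1 array at a time gave 18013 to 18671 called probes and 17 member probes lower each time. Within slide 1, Actc1 changed by −6.65, and on slide 2 by −6.75. Within slide 1 Tpm3 changed by 0.08, and on slide 2 by −0.035. The dim Acta2 probe from base 222 and the Actb probe from base 1809 are limited by background.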

Other observations

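Related actin-binding proteins were set side by side after their values were seen, with no test of a pattern, and spike-in scaling and normexp background were the only alternatives computed for single genes. The muscle cofilin Cfl2 fell by 2.17 on the log2 scale, its relative Dstn by 0.75 and the general cofilin Cfl1 by 0.22, where Cfl1 was at 0.22 with spike-in scaling. The cyclase-associated protein of muscle, Cap2, changed by −2.71 and the widespread Cap1 by 2.07. The Z-disc alpha-actinins Actn2 (−1.99) and Actn3 (−1.52) fell and the non-muscle Actn4 (0.43) rose, while the non-muscle Actn1 (0.14) was at the edge of the threshold, with an adjusted p of 0.0491 in limma's test. The muscle filamin Flnc fell by 1.85, and the widespread Flna changed by −0.25 (0.19 with spike-in scaling). In other families the widespread forms fell too. Calponins changed by −1.50 (Cnn1, of smooth muscle), −1.75 (Cnn2) and −2.57 (Cnn3), and transgelins by −1.75 (Tagln, of smooth muscle) and −1.30 (Tagln2). The satellite cell and myoblast markers fell beside them for 8 of 8 tested genes and the macrophage markers rose for 13 of 13. Of all named genes 48.8% were called lower and 40.5% higher. Pax7 and Mrc1 in these counts passed the filter through 1 group alone. The part of these markers in these values was not tested.

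Within the Arp2/3 complex, which branches actin filaments, Actr2 stood apart. It changed by −4.86 on a single probe, with values of −1.69, −1.73 and −1.62 in Magic-F1 and 3.20, 3.05 and 3.30 in control cells. Its partner Actr3 changed by −0.24, Arpc1a by −0.55 and Arpc5l by −0.84. Arpc2 changed by 0.83, Arpc3 by 0.64 and Arpc4 by 0.26, while Arpc1b (0.15) and Arpc5 (0.05) were not called. With spike-in scaling Actr2 was at −4.42, Actr3 at 0.20, Arpc1a at −0.11 and Arpc5l at −0.40.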
